A study of Mus musculus with 12 samples.

Results

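Triglyceride is built from fatty acids and glycerol 3-phosphate by a short chain of enzymes, and the transcripts of 10 of them were followed in gonadal white adipose tissue (gWAT): Gpd1, Acsl1, Gpam, Agpat2, Agpat3, Lpin1, Lpin2, Dgat1, Dgat2 and Mogat2. These genes were taken by name from the deposited raw counts, where they make up 10 of 19792 genes. All 10 passed the filter on low counts and were tested among 16352 genes. RNA-seq was done on whole gWAT of male mice in 12 libraries, 3 for each combination of genotype and diet. KO-HFD and KO-NCD mice (Cx43-MKO) carried floxed Gja1, the gene of connexin 43, together with Csf1r-CreER, a recombinase that tamoxifen activates and that the Csf1 receptor promoter drives in macrophages and other myeloid cells. WT-HFD and WT-NCD mice carried floxed Gja1 without CreER, so the recombinase itself and the deletion cannot be told apart. The strain label is C57BL/6 for every library, but the CreER line bears an FVB name in the study's methods. Mice entered the diets, high-fat (HFD) or normal chow (NCD), at 6 weeks of age and stayed on them for 8 weeks. Tamoxifen was given in courses of 5 days. The treatment labels list it for KO mice only, the deposited protocol names no genotype, and the study's methods give it to both genotypes.

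In white adipocytes, Gpd1 makes glycerol 3-phosphate from a glycolytic intermediate and Acsl1 activates fatty acids to acyl-CoA. Gpam, a mitochondrial glycerol-3-phosphate acyltransferase, adds the first acyl chain, acyltransferases of the AGPAT family add the next to give phosphatidic acid, and lipins remove its phosphate to give diacylglycerol. Dgat1 and Dgat2, which are unrelated in sequence, attach the last chain, and Mogat2, best known from the small intestine, makes diacylglycerol from monoacylglycerol.

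Total counts ran between 47185990 and 73167755 per library, and counts of a member in a library between 320 (Mogat2 in WT-HFD 4) and 261370 (Dgat2 in WT-NCD 2). Libraries are named by group and by the number in the table, which is 1, 2 and 4 in WT-HFD. Expression is given as CPM, the library-size-scaled counts after TMM. Gja1 was not called as different between genotypes in whole tissue (log2 fold change 0.18 on each diet, edgeR adjusted p = 0.741 on HFD and 0.736 on NCD), at 65.7 to 96.8 CPM in KO-HFD, 48.9 to 149.8 CPM in KO-NCD, 65.8 to 68.8 CPM in WT-HFD and 73.8 to 83.6 CPM in WT-NCD, so these libraries do not check the deletion in macrophages. All 8 adipocyte markers, Adipoq and Plin1 among them, were present in every group, and their summed level was 21019 to 23857 CPM in KO-HFD, 17295 to 20803 CPM in KO-NCD, 14679 to 19094.5 CPM in WT-HFD and 19168 to 26168.5 CPM in WT-NCD. The summed level of 10 macrophage markers was 1072 to 2306 CPM in KO-HFD, 1267 to 1996 CPM in KO-NCD, 2773 to 4176 CPM in WT-HFD and 1098 to 1176 CPM in WT-NCD. WT-NCD stood apart, because transcripts of 8 seminal vesicle genes took 7.94%, 9.02% and 1.75% of its counts in libraries 1, 2 and 3, and at most 0.00152% in any other library. Those of 8 liver genes made up 0.161% of all counts of KO-HFD 2 and 0.0618% of KO-NCD 2. Their share was 0.0271% in KO-HFD 3, 0.0172% in KO-HFD 1, 0.00639% in KO-NCD 3 and 0.00154% in KO-NCD 1. It was at most 0.00536% in any WT library. In whole tissue, fewer adipocytes and less RNA per adipocyte cannot be told apart. Nothing in the labels says that the libraries of a group came from separate mice, so p-values measure the spread between these libraries.

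On HFD, most of the pathway was lower in WT mice. All but 2 of the 10 enzymes fell in WT-HFD against WT-NCD, by up to a log2 fold change of -3.46 (Agpat2), while Lpin2 rose and Mogat2 did not pass the test. A gene counts as called here where edgeR's quasi-likelihood test gave an adjusted p below 0.05. In this comparison 36.0% of all tested genes were called, made up of 17.6% of all tested genes as higher and 18.4% as lower. The members had a median log2 fold change of -1.21, against -0.00021 over all tested genes. In KO-HFD against KO-NCD, none of the 10 members was called by edgeR, where 0.0306% of all genes were, 0.0245% as higher and 0.00612% as lower. At an unadjusted p below 0.05 in edgeR there were 3 members (Gpd1, Gpam and Mogat2), beside 1531 of all 16352 genes. The DESeq2 Wald test called 1 member, Mogat2, as higher, beside 1.86% of all genes. The median of the members was -0.18 in KO mice and that of all genes -0.011.

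Between genotypes, 2 members were called on HFD and 6 on NCD. In KO-HFD against WT-HFD, Agpat2 was higher and Lpin2 lower, and 8 members were not called, beside 15.7% of all genes, 7.99% as higher and 7.72% as lower. The median of the members was 0.30, against 0.019 for all genes. In KO-NCD against WT-NCD, 6 members were lower and none higher (Gpd1, Acsl1, Agpat2, Agpat3, Dgat1 and Mogat2), beside 13.2% of all genes, 5.27% as higher and 7.91% as lower. The median was -0.74, against 0.060 for all genes. The diet by genotype interaction, the log2 change with diet in KO mice minus that in WT mice, was called with a positive sign for 6 members (Gpd1, Agpat2, Agpat3, Dgat1, Dgat2 and Mogat2), beside 17.7% of all genes, 9.12% with a positive and 8.57% with a negative sign. These comparisons share libraries, and each that uses WT-NCD rests on the libraries with seminal vesicle transcripts. Without WT-NCD 1 and WT-NCD 2, where WT-NCD 3 stands alone and is taken to vary like the other groups, 4 members (Gpd1, Agpat2, Agpat3 and Dgat1) were called in WT-HFD against WT-NCD beside 14.5% of all genes, 1 (Agpat2) for the interaction beside 4.31%, and 0 in KO-NCD against WT-NCD beside 0.445%. Without KO-HFD 2 and KO-NCD 2, the libraries with the most liver transcripts, 2 members (Gpd1 and Agpat2) were called in KO-NCD against WT-NCD beside 10.4% of all genes. The interaction was then called for 5 beside 13.6%, Agpat3 and Dgat1 being lost and Lpin2 (-0.87) gained. The plot of log2 fold changes gives every member in every comparison.

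**Figure D1:**
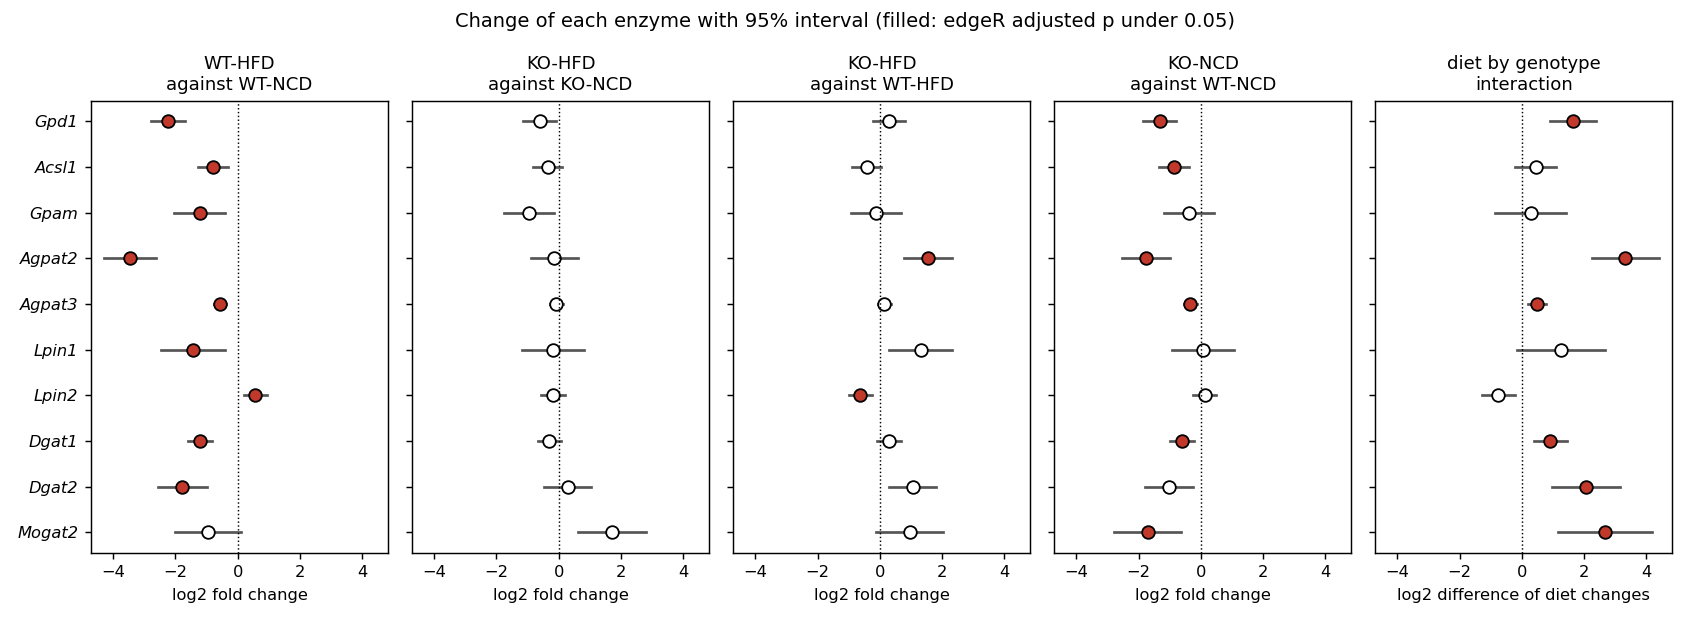
Log2 fold change (x axis) of each enzyme (y axis) in the 4 comparisons and its diet by genotype interaction, with 95% intervals from edgeR's quasi-likelihood fit over 12 libraries. Filled points had an adjusted p below 0.05, which holds for 9 members in WT-HFD against WT-NCD and for 0 in KO-HFD against KO-NCD.

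Summed over the 10 genes, the enzymes held 0.577% ± 0.028 of all counts in KO-HFD, 0.626% ± 0.127 in KO-NCD, 0.411% ± 0.112 in WT-HFD and 1.07% ± 0.049 in WT-NCD libraries (SD, n = 3 each). Per kilobase of exon, Dgat2 was the most abundant member in every group, at 825 CPM in KO-HFD, 675 CPM in KO-NCD, 398 CPM in WT-HFD mice and 1362 CPM in WT-NCD mice. Gpd1 followed in each group. Agpat2 ranked next in KO-HFD, KO-NCD and WT-NCD, but Acsl1 took that place in WT-HFD, at 129.7 CPM per kilobase against 71.8 for Agpat2. Mogat2 and Lpin2 were the least abundant members per kilobase in each group. Of the counts of all members, Dgat2 held 46.0% ± 5.5 in KO-HFD, 34.8% ± 2.3 in KO-NCD, 29.3% ± 8.2 in WT-HFD and 34.3% ± 1.4 in WT-NCD libraries, and Acsl1 held 18.3% ± 2.2, 21.7% ± 2.0, 34.9% ± 2.4 and 19.2% ± 1.7 in the same groups (SD, n = 3 each).

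**Figure D2:**
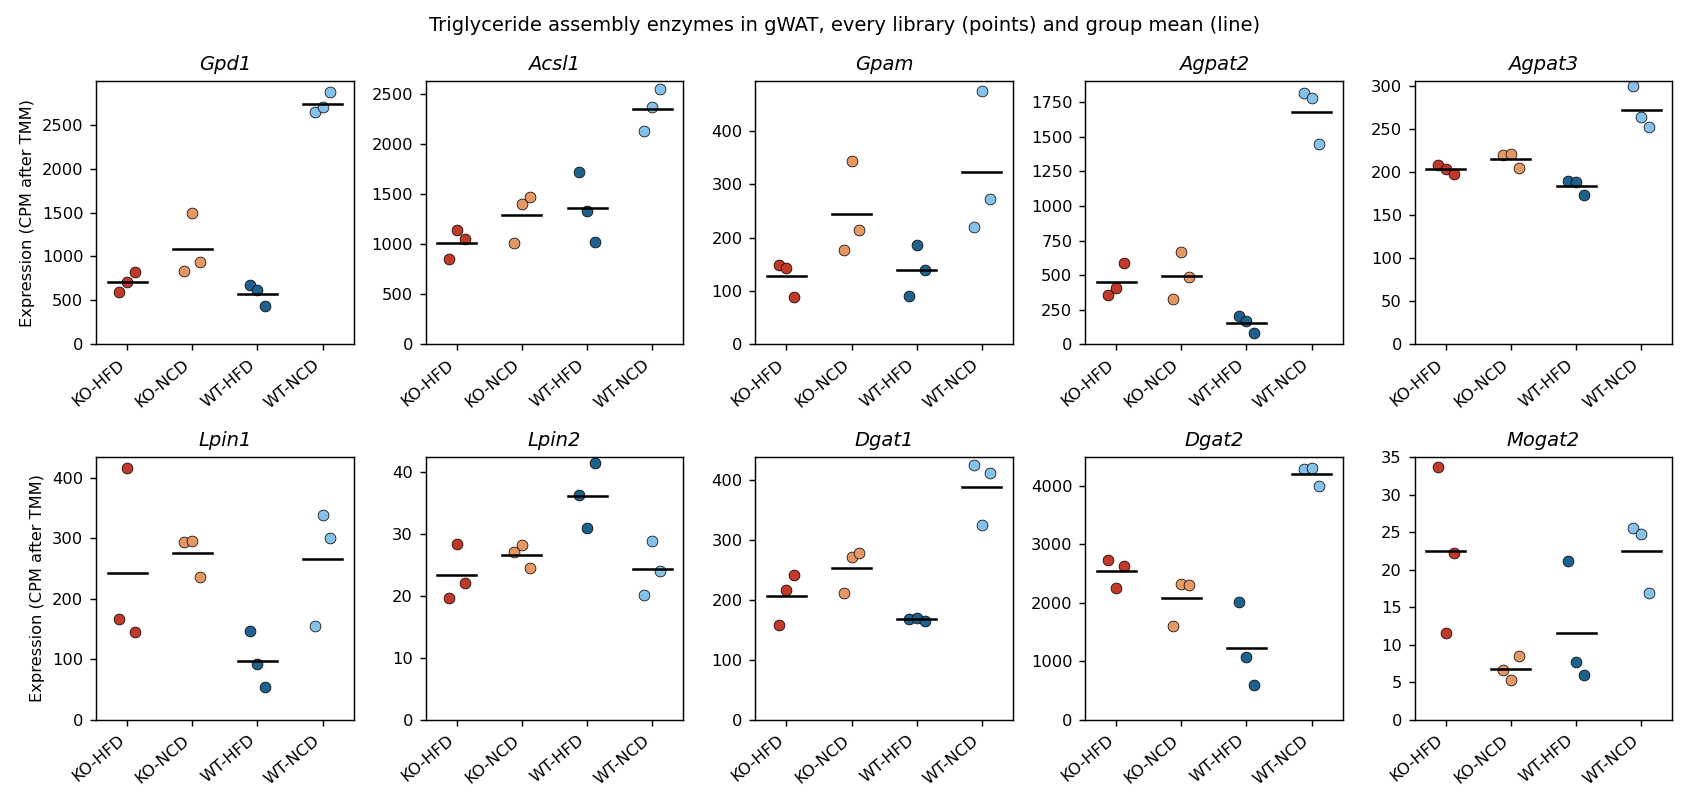
Expression (y axis, CPM after TMM) of each enzyme in every library of KO-HFD, KO-NCD, WT-HFD and WT-NCD (x axis), with points for libraries and a line for the group mean. The WT-NCD libraries lie highest for Gpd1, Acsl1, Agpat2, Agpat3, Dgat1 and Dgat2, and the WT-HFD libraries highest for Lpin2.

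Gpd1, the cytosolic glycerol-3-phosphate dehydrogenase that supplies the backbone (chr15:99717515-99725005 of GRCm38, plus strand), lost most of its transcript on HFD in WT mice. It stood at 595, 712 and 827 CPM in KO-HFD, 835, 1493 and 941 CPM in KO-NCD, 678, 616 and 441 CPM in WT-HFD and 2643, 2701 and 2874 CPM in WT-NCD. WT-NCD lay above every other library, and the KO groups did not overlap each other. Gpd1 fell in WT-HFD against WT-NCD (log2 fold change -2.24, SE 0.24, edgeR adjusted p = 0.000143) and was lower in KO-NCD than in WT-NCD (log2 fold change -1.33, SE 0.24, adjusted p = 0.00974). Its difference between KO-HFD and KO-NCD was smaller and not called (log2 fold change -0.62, 95% interval -1.13 to -0.098, adjusted p = 0.442). The diet changes differed by 1.63 (SE 0.33, adjusted p = 0.00953). KO-HFD and WT-HFD overlapped, with a log2 fold change of 0.30 (95% interval -0.22 to 0.82).

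Acsl1, the long-chain acyl-CoA synthetase of adipocytes (chr8:46471037-46536051, plus strand), ranged over 855 to 1138 CPM in KO-HFD, 1015 to 1471 CPM in KO-NCD, 1019.5 to 1725 CPM in WT-HFD and 2128 to 2545 CPM in WT-NCD. Only the WT-NCD libraries stood clear of the rest. It fell in WT-HFD against WT-NCD (log2 fold change -0.79, SE 0.21, edgeR adjusted p = 0.015) and was lower in KO-NCD than in WT-NCD (log2 fold change -0.86, SE 0.21, adjusted p = 0.0283). The KO-NCD call was lost without KO-NCD 1, KO-NCD 3, WT-NCD 1 or WT-NCD 3, at adjusted p between 0.064 and 0.0941. Its diet changes were not called as different between the genotypes (0.44, 95% interval -0.22 to 1.10, adjusted p = 0.346).

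Gpam, the first acyltransferase of the chain (chr19:55067268-55127238, minus strand), varied widely within groups, over 89.5 to 149 CPM in KO-HFD, 178 to 344 CPM in KO-NCD, 90.6 to 186 CPM in WT-HFD and 221 to 475 CPM in WT-NCD. Its HFD libraries lay below the NCD libraries of the same genotype without overlap, in KO and in WT mice. Only the WT difference was called (log2 fold change -1.22, SE 0.37, edgeR adjusted p = 0.0245), and the KO difference was of similar size but not called (log2 fold change -0.94, 95% interval -1.75 to -0.14, adjusted p = 0.443). The WT call was lost without WT-HFD 1, WT-HFD 4 or WT-NCD 2, at adjusted p between 0.0662 and 0.098. Between the diet changes of the genotypes, the difference was 0.28 with a 95% interval of -0.86 to 1.41. The genotypes overlapped on each diet.

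Agpat2, the main 1-acylglycerol-3-phosphate acyltransferase of adipocytes, whose loss causes lipodystrophy in humans and mice, had the largest change of any member in WT-HFD against WT-NCD and the largest interaction, and its relative Agpat3 had the smallest of the changes called there. Their RefSeq promoters, the 250 bases before the most upstream listed start in GRCm38.p6, are shown because the paralogs differ in the size of that change, with capitals marking any match, on either strand, to the CCAAT box (letters CCAAT), the GC box (letters GGGCGG), an E-box (letters CACGTG), the sterol regulatory element (letters TCACNCCAC) or the nuclear receptor half-site (letters AGGTCA). The Agpat2 window is chr2:26604418-26604667 and that of Agpat3 chr10:78351701-78351950, both on the minus strand. The Agpat2 window directly precedes the GENCODE M21 gene span given below. That of Agpat3 lies inside its gene span, whose start is further upstream than the RefSeq start, so these windows are not at like positions.
Agpat2: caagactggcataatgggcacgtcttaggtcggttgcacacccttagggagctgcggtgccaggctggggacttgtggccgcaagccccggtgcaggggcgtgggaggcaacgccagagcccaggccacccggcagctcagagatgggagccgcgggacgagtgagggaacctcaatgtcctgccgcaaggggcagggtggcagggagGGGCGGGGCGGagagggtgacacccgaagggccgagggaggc
Agpat3: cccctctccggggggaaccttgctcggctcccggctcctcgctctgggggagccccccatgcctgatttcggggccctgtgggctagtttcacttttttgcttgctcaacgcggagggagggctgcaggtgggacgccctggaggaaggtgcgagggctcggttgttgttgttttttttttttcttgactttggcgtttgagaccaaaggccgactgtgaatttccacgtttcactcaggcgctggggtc
The Agpat2 window holds 2 overlapping matches to the GC box, which 32.7% of 32851 promoters of the same length hold, and the Agpat3 window holds none of these letters.

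Agpat2 (chr2:26593057-26604417, minus strand) stood at 359, 406 and 585 CPM in KO-HFD, 329, 669 and 489 CPM in KO-NCD, 205, 171 and 83.3 CPM in WT-HFD and 1816, 1779 and 1449 CPM in WT-NCD. The WT-HFD libraries were the lowest and the WT-NCD libraries the highest, with both KO groups between them and overlapping each other. Agpat2 fell in WT-HFD to a fold change of 0.091 of WT-NCD (log2 fold change -3.46, SE 0.37, edgeR adjusted p = 0.000135). It was higher in KO-HFD than in WT-HFD (log2 fold change 1.56, SE 0.35, adjusted p = 0.016) and lower in KO-NCD than in WT-NCD (log2 fold change -1.76, SE 0.35, adjusted p = 0.0139). Within KO mice the change with diet was -0.14 (95% interval -0.89 to 0.61, adjusted p = 0.941). The diet changes of the genotypes thus differed by 3.32 (SE 0.49, adjusted p = 0.00345), and by 3.11 without WT-NCD 1 and WT-NCD 2 (adjusted p = 0.0369). The KO-HFD call was lost without KO-HFD 3 (adjusted p = 0.0524), and the KO-NCD call without KO-NCD 1 (adjusted p = 0.0531) or KO-NCD 3 (adjusted p = 0.0554). Agpat2 overlaps Egfl7 by 64 bases and Gm20532, which was not counted, by 11361 bases, both on the opposite strand. Genes on the opposite strand that were not counted also overlap Gpam (18314 bases), Mogat2 (7997 bases) and Gpd1 (6960 bases). Shorter overlaps of this kind exist for Acsl1 and Agpat3. The strand setting of the counting was not stated.

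Agpat3 (chr10:78269178-78352489, minus strand), an acyltransferase of the endoplasmic reticulum and Golgi, stood at 208, 204 and 198 CPM in KO-HFD, 220.3, 221 and 205 CPM in KO-NCD, 190.0, 189 and 174 CPM in WT-HFD and 299.9, 264 and 253 CPM in WT-NCD. The libraries of a group lay close together, and WT-NCD lay above all others. KO-HFD lay above WT-HFD without overlap, but the difference was not called (log2 fold change 0.14, edgeR adjusted p = 0.299). Agpat3 fell in WT-HFD against WT-NCD (log2 fold change -0.56, SE 0.092, edgeR adjusted p = 0.00111) and was lower in KO-NCD than in WT-NCD (log2 fold change -0.34, SE 0.092, adjusted p = 0.0378). Of 12 fits that left out 1 library each, the KO-NCD call held only in the 4 without KO-HFD 3, WT-HFD 1, WT-HFD 4 or WT-NCD 2, with adjusted p up to 0.130 in the others. Its interaction was 0.48 (SE 0.13, adjusted p = 0.029) and was lost in 7 of those fits, without KO-HFD 1, KO-HFD 2, KO-NCD 1, KO-NCD 3, WT-HFD 2, WT-HFD 4 or WT-NCD 1, at adjusted p between 0.051 and 0.0805.

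Lpin1 and Lpin2 encode phosphatidate phosphatases that also act in the nucleus as transcriptional coregulators, Lpin1 being the main lipin of adipose tissue. They moved in opposite directions with diet in WT mice, and their RefSeq promoters are shown for that reason in the same form. The Lpin1 window is chr12:16610967-16611216 on the minus strand and that of Lpin2 chr17:71183282-71183531 on the plus strand. The Lpin1 window directly precedes its GENCODE M21 gene span. That of Lpin2 lies inside its gene span, whose start is further upstream than the RefSeq start.
Lpin1: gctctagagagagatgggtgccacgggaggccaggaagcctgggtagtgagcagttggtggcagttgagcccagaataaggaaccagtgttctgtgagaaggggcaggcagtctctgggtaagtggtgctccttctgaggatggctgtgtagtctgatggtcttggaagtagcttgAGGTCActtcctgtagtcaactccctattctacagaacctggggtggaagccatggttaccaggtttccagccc
Lpin2: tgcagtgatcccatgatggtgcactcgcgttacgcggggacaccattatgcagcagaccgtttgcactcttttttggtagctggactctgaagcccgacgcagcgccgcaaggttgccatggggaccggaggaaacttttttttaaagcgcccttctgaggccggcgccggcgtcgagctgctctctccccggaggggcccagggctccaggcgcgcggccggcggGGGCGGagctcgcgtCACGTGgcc
The Lpin1 window holds 1 match to the nuclear receptor half-site, found in 14.0% of the 32851 promoters, and the Lpin2 window holds 1 match to the GC box and 1 to the E-box, found in 6.02% of them. Of the other members, the window of Gpam holds 1 match to the CCAAT box, found in 33.8% of promoters, and that of Acsl1 holds 4 to the GC box. None of the 6 windows holds the sterol regulatory element, found in 1.05% of promoters. Of the 10 members, 6 had a promoter entry, and Gpd1, Dgat1, Dgat2 and Mogat2 are named without one.

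Lpin1 (chr12:16535669-16610966, minus strand) stood at 167, 417 and 146 CPM in KO-HFD, 294, 296 and 235 CPM in KO-NCD, 147, 92.4 and 54.2 CPM in WT-HFD and 155, 339 and 301 CPM in WT-NCD. KO-HFD 2 was high and WT-NCD 1 low within their groups, and WT-HFD lay below WT-NCD without overlap. Lpin1 fell in WT-HFD against WT-NCD (log2 fold change -1.44, SE 0.46, edgeR adjusted p = 0.0323). That call was lost without WT-HFD 2, WT-HFD 4, WT-NCD 2 or WT-NCD 3, at adjusted p between 0.0833 and 0.104. KO-HFD had the higher mean against WT-HFD but overlapped it at WT-HFD 1, and the difference was not called by edgeR (log2 fold change 1.31, 95% interval 0.30 to 2.33, adjusted p = 0.0765), while the DESeq2 Wald test called it (adjusted p = 0.0144). Without KO-HFD 2 and KO-NCD 2, the libraries with the most liver transcripts, that difference was 0.68 (edgeR adjusted p = 0.329). The interaction was then 0.68 (edgeR adjusted p = 0.478), against 1.26 (adjusted p = 0.205) with them.

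Lpin2 (chr17:71182560-71249817, plus strand) stood at 19.8, 28.4 and 22.1 CPM in KO-HFD, 27.1, 28.3 and 24.5 CPM in KO-NCD, 36.3, 31.0 and 41.4 CPM in WT-HFD and 20.3, 28.9 and 24.1 CPM in WT-NCD. The 3 WT-HFD libraries were the highest of all 12, and the other groups overlapped. Lpin2 rose in WT-HFD against WT-NCD (log2 fold change 0.57, SE 0.17, edgeR adjusted p = 0.0228) and was lower in KO-HFD than in WT-HFD (log2 fold change -0.63, SE 0.17, adjusted p = 0.0322). The rise was lost without WT-HFD 4, WT-NCD 1 or WT-NCD 3, at adjusted p between 0.0634 and 0.0914, and the genotype difference without KO-HFD 1, KO-HFD 3, WT-HFD 1 or WT-HFD 4, at adjusted p between 0.0533 and 0.120. In KO mice the change with diet was -0.18 (95% interval -0.56 to 0.19). The interaction was -0.75 (SE 0.24, adjusted p = 0.0518) and so just missed the threshold. The macrophage markers were also highest in WT-HFD, as given above, and their part in the level of Lpin2 was not tested.

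Dgat1 (chr15:76502015-76511953, minus strand), one of the acyl-CoA:diacylglycerol acyltransferases, stood at 159, 217 and 242 CPM in KO-HFD, 211, 271 and 278 CPM in KO-NCD, 168, 169 and 165 CPM in WT-HFD and 425, 325 and 411 CPM in WT-NCD. All WT-NCD libraries lay above the rest. It fell in WT-HFD against WT-NCD (log2 fold change -1.21, SE 0.17, edgeR adjusted p = 0.000525) and was lower in KO-NCD than in WT-NCD (log2 fold change -0.61, SE 0.17, adjusted p = 0.0401). The KO-NCD call held only without KO-HFD 1, KO-HFD 3, WT-HFD 1 or WT-NCD 2, with adjusted p up to 0.128 in the other 8 fits that left out 1 library. The change in KO mice was not called (log2 fold change -0.30, 95% interval -0.68 to 0.07). Its interaction was 0.91 (SE 0.24, adjusted p = 0.0269) and was lost without KO-HFD 2, KO-HFD 3, KO-NCD 1, WT-HFD 2, WT-HFD 4, WT-NCD 1 or WT-NCD 3, at adjusted p between 0.0513 and 0.0647.

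Dgat2 (chr7:99153658-99182719, minus strand), the other enzyme of this step, stood at 2735, 2257 and 2635 CPM in KO-HFD, 1609.6, 2321 and 2312 CPM in KO-NCD, 2013, 1073 and 598 CPM in WT-HFD and 4289, 4308 and 4001 CPM in WT-NCD. The WT-HFD libraries were spread the widest, and every KO-HFD library lay above them. Dgat2 fell in WT-HFD against WT-NCD (log2 fold change -1.77, SE 0.36, edgeR adjusted p = 0.00327). In KO mice it was not called (log2 fold change 0.29, 95% interval -0.47 to 1.05, adjusted p = 0.843). The diet changes differed by 2.06 (SE 0.49, adjusted p = 0.0178), a call kept in all 12 fits without 1 library and lost without both WT-NCD 1 and WT-NCD 2 (1.998, adjusted p = 0.111). Neither genotype difference was called by edgeR, with log2 fold changes of 1.05 (adjusted p = 0.065) in KO-HFD against WT-HFD and -1.01 (adjusted p = 0.0772) in KO-NCD against WT-NCD. The DESeq2 Wald test called the first of these (adjusted p = 0.0107), and so did edgeR without WT-HFD 1 (log2 fold change 1.61, adjusted p = 0.0054). The second was also called by the DESeq2 Wald test and by edgeR on KO-NCD and WT-NCD alone, as given below. In edgeR it was called in 2 of 12 fits that left out 1 library.

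Mogat2 (chr7:99219084-99238619, minus strand), the monoacylglycerol acyltransferase, lies next to Dgat2, a member of the same protein family, and was the least abundant member in CPM. It stood at 33.6, 11.6 and 22.3 CPM in KO-HFD, 6.63, 5.33 and 8.58 CPM in KO-NCD, 21.2, 7.79 and 5.95 CPM in WT-HFD and 25.6, 24.8 and 16.9 CPM in WT-NCD. KO-HFD lay above KO-NCD without overlap, whereas WT-HFD 1 reached into the range of WT-NCD. The change with diet in KO mice was 1.72 on the log2 scale (95% interval 0.63 to 2.80), and it was not called by edgeR (adjusted p = 0.288) but was by DESeq2 (adjusted p = 0.0216). In WT mice the change was -0.95 (95% interval -2.01 to 0.11, edgeR adjusted p = 0.15), and without WT-HFD 1 it was -1.71 (adjusted p = 0.0118). KO-NCD was lower than WT-NCD (log2 fold change -1.71, SE 0.49, adjusted p = 0.044), a call that held only without KO-HFD 1, KO-HFD 2, WT-HFD 1 or WT-HFD 4, with adjusted p up to 0.125 in the other 8 fits. The interaction was 2.67 (SE 0.69, adjusted p = 0.024) and was lost without KO-HFD 1, KO-NCD 1, WT-HFD 2 or WT-NCD 1, at adjusted p between 0.0535 and 0.058. Enterocyte markers, which would come with intestinal tissue, summed to 1.53 to 13.7 CPM in KO-HFD and 0.546 to 17.6 CPM in KO-NCD. They summed to 0.653 to 1.14 CPM in WT-HFD and 0.894 to 2.74 CPM in WT-NCD. The highest sums, 13.7 and 17.6 CPM, were in KO-HFD 2 and KO-NCD 2, the libraries with the most liver transcripts. Mogat2 was lowest of its group in KO-HFD 2 (11.6 CPM) and in KO-NCD 2 (5.33 CPM). The part of these markers in the level of Mogat2 was not tested.

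The balance between paired enzymes was also compared as the log2 ratio of their counts within each library, which no scaling of the libraries can change. The lipin balance moved toward Lpin2 in WT-HFD, where Lpin2 over Lpin1 averaged -1.33 ± 0.84, and -3.38 ± 0.39 in the WT-NCD libraries (SD, n = 3). Agpat3 over Agpat2 averaged 0.37 ± 0.62 in the WT-HFD libraries and -2.62 ± 0.12 in the WT-NCD libraries (SD, n = 3), a difference of 2.99. Between KO-HFD and KO-NCD these ratios differed by 0.14 and 0.032, and the groups overlapped. In KO-HFD against WT-HFD, Lpin2 over Lpin1 differed by -1.90 and Agpat3 over Agpat2 by -1.48, both without overlap. In KO-NCD against WT-NCD, Lpin2 over Lpin1 differed by 0.013 with overlap, and Agpat3 over Agpat2 by 1.48 without overlap. Dgat2 over Dgat1 was 3.65 ± 0.40 in KO-HFD, against 3.03 ± 0.09 in KO-NCD, and Mogat2 over Dgat2 was -6.95 ± 0.63 in KO-HFD, against -8.25 ± 0.45 in KO-NCD (SD, n = 3), and neither pair of groups overlapped. In WT mice, Mogat2 over Dgat2 also averaged higher on HFD without overlap, at -6.77 ± 0.29 in the WT-HFD libraries and -7.57 ± 0.27 in the WT-NCD libraries (SD, n = 3). An exact two-sided permutation test of 3 libraries against 3 cannot go below p = 0.1, which 10 of the 16 comparisons of ratios reached, and adjusted over all 16 the smallest p was 0.16, so no ratio passed.

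**Figure D3:**
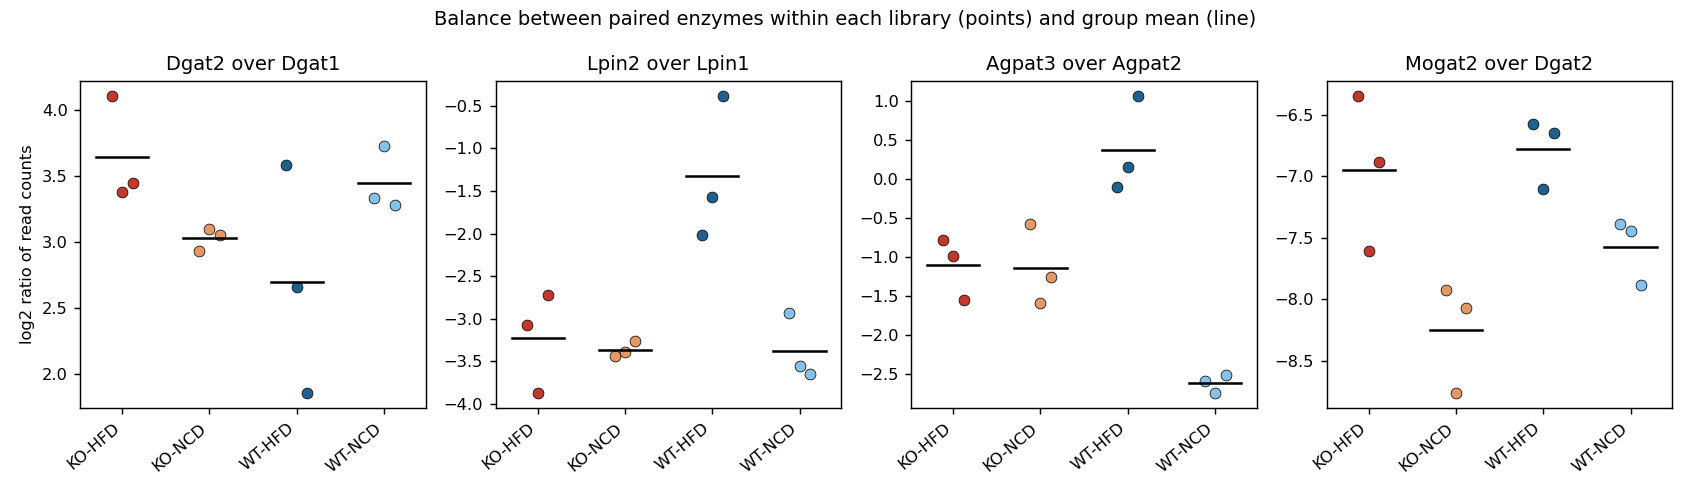
Log2 ratio of read counts (y axis) of 4 pairs of enzymes within each library of the 4 groups (x axis), with points for libraries and a line for the group mean. The WT-HFD libraries have the highest ratios of Lpin2 over Lpin1 and of Agpat3 over Agpat2, at means of -1.33 and 0.37.

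The rest of the pathway was described with 31 further genes of fatty acid activation, glycerol 3-phosphate supply, acylation and droplet formation. Of these, 28 were tested, Gpat2 and Acsl6 were outside the filter on low counts, and Awat1 was not analysed here. In WT-HFD against WT-NCD, 5 of the 28 rose, 13 fell and 10 were not called, with a median log2 fold change of -0.33, beside 36.0% of all genes called. In KO-HFD against KO-NCD, 0 were called by edgeR or by the DESeq2 Wald test, beside 0.0306% and 1.86% of all genes. An unadjusted p below 0.05 in edgeR was reached by 7 of the 28, beside 1531 of all 16352 genes. In KO-HFD against WT-HFD, 8 were higher and 3 lower, beside 15.7% of all genes called. In KO-NCD against WT-NCD 8 were lower, beside 7.91% of all genes, and the interaction was positive for 8 and negative for 3, beside 17.7% of all genes called. Without WT-NCD 1 and WT-NCD 2, the calls were 10 in WT-HFD against WT-NCD, 5 for the interaction and 1 in KO-NCD against WT-NCD, beside 14.5%, 4.31% and 0.445% of all genes.

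Enzymes of the same steps as the members were among those that fell on HFD in WT mice. Mogat1, the other monoacylglycerol acyltransferase, averaged 3.44 ± 1.21 CPM in the WT-HFD libraries and 48.2 ± 14.5 CPM in the WT-NCD libraries (SD, n = 3), a log2 fold change of -3.81 (SE 0.43, edgeR adjusted p = 0.000172), and was not called in KO mice. Gpat3, a microsomal glycerol-3-phosphate acyltransferase, averaged 49.2 ± 9.6 CPM in the WT-HFD libraries and 315 ± 18 CPM in the WT-NCD libraries (SD, n = 3), a log2 fold change of -2.68 (SE 0.24, adjusted p = 7.68e-05). Bscl2, the seipin of lipid droplet formation, fell by 1.88 on the log2 scale (adjusted p = 5.67e-05) and Slc27a4, a fatty acid transport protein, by 0.91 (adjusted p = 5.33e-05). Each of these 4 had a positive interaction, between 0.93 (Slc27a4) and 3.24 (Mogat1), at adjusted p between 0.00223 and 0.0057.

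Other genes moved the opposite way. Agpat4, an acyltransferase of the Agpat2 family, averaged 22.5 ± 2.4 CPM in the WT-HFD libraries and 9.04 ± 1.34 CPM in the WT-NCD libraries (SD, n = 3), a log2 fold change of 1.32 (SE 0.18, edgeR adjusted p = 0.000422). Gk, the glycerol kinase, rose by 1.51 on the log2 scale (adjusted p = 0.0046), Acsl5, another acyl-CoA synthetase, by 0.70 (adjusted p = 0.00591), and Tmem68, an acyltransferase that can form triglyceride, by 0.47 (adjusted p = 0.0177). The interaction was negative for Agpat4 (-0.90, adjusted p = 0.0336), Gk (-1.52, adjusted p = 0.0406) and Tmem68 (-0.62, adjusted p = 0.0412). In KO-HFD against WT-HFD, Gpat3, Slc27a4, Gpat4 and the mitochondrial glycerol-3-phosphate dehydrogenase Gpd2 were higher, with log2 fold changes between 0.35 (Slc27a4) and 1.20 (Gpat3), and Agpat4, Tmem68 and Acsl4 were lower, between -1.44 (Acsl4) and -0.63 (Tmem68). In KO-NCD against WT-NCD, Slc27a4, Agpat1, Bscl2 and the phosphatase Plpp2 were lower, with log2 fold changes between -1.05 (Bscl2) and -0.57 (Slc27a4). Dgat2l6, a relative of Dgat2, was also among the genes called as lower in WT-HFD and in KO-NCD, each against WT-NCD. It had 0 CPM in every KO-HFD and WT-HFD library and at most 0.0312 CPM in KO-NCD. Its levels were 1.52, 2.41 and 0.406 CPM in WT-NCD 1, 2 and 3. The seminal vesicle transcripts took 7.94%, 9.02% and 1.75% of the counts of these same libraries, in the same order as Dgat2l6, and their part in its level was not tested. The median of the further genes, -0.33, was the same with Dgat2l6 set at a floor of 3 counts over the group.

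**Figure D4:**
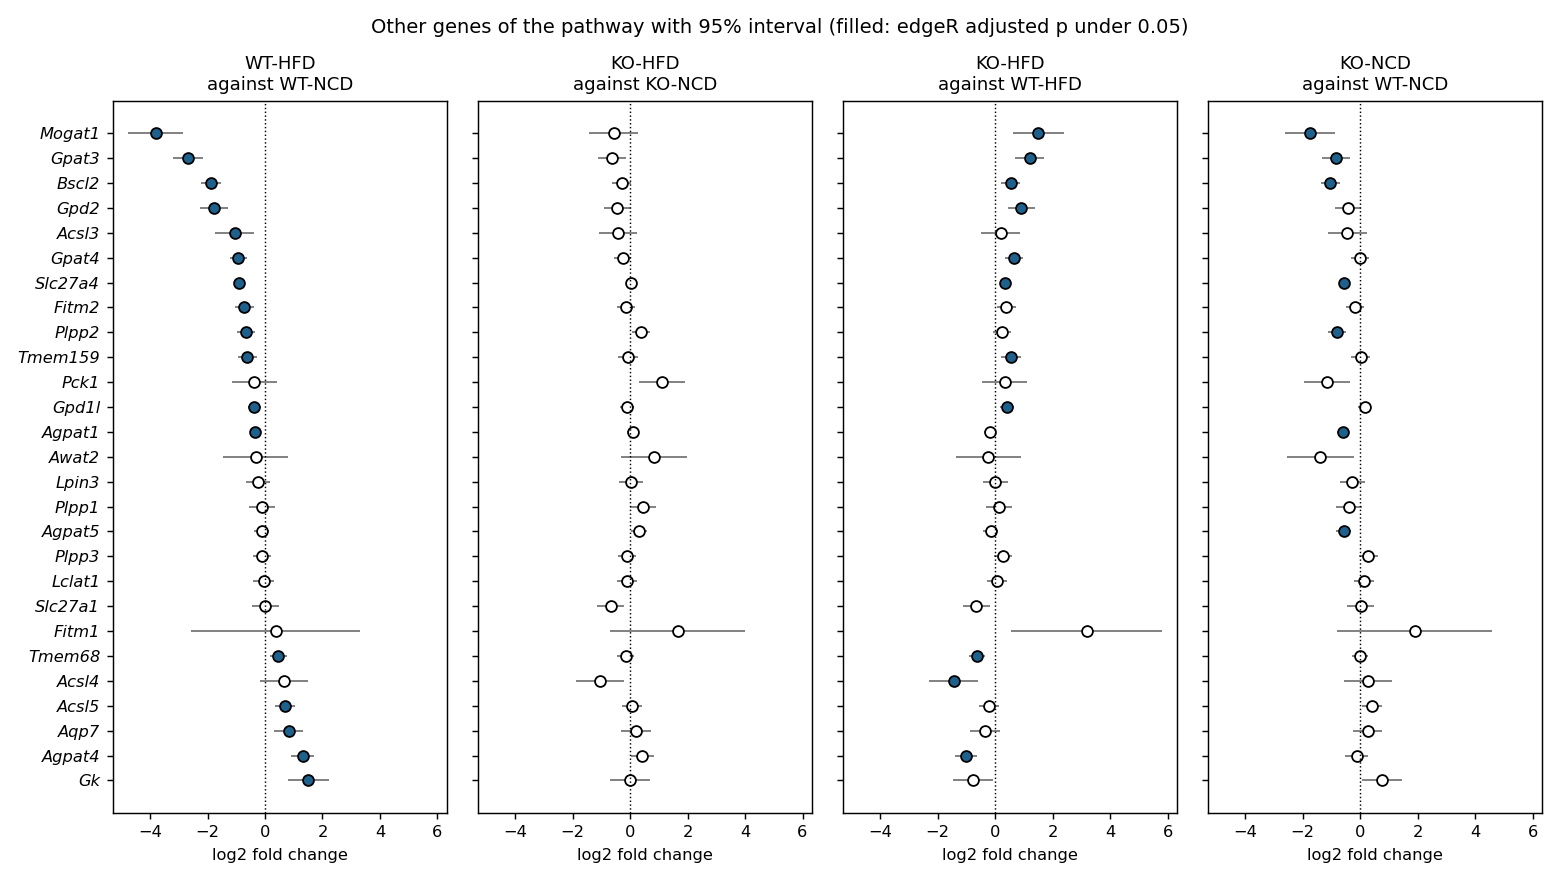
Log2 fold change (x axis) with 95% interval of 27 further genes of the pathway (y axis, Dgat2l6 left out because some groups had 0 counts) in the 4 comparisons, filled where edgeR gave an adjusted p below 0.05. Mogat1 has the lowest value in WT-HFD against WT-NCD, at -3.81, and no gene is filled in KO-HFD against KO-NCD.

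Of the 8 adipocyte markers, 6 were called as lower in WT-HFD than in WT-NCD (median log2 fold change -0.82) and 4 as higher in KO-HFD than in WT-HFD (median 0.57), while 0 were called in KO-HFD against KO-NCD (median 0.078) or in KO-NCD against WT-NCD (median -0.19), where 6 of the 10 enzymes were lower. By unadjusted p below 0.05 in edgeR these last 2 counts of markers were 1 and 2, beside 1531 and 5122 of all 16352 genes. Of 10 macrophage markers, 7 were called as higher in WT-HFD against WT-NCD and 6 as lower in KO-HFD against WT-HFD. Of 6 neutrophil markers, 5 were higher in WT-HFD against WT-NCD and 6 lower in KO-HFD against WT-HFD. The neutrophil markers summed to 15.1 to 20.4 CPM in KO-HFD, 17.5 to 52.6 CPM in KO-NCD, 25.3, 187 and 505 CPM in WT-HFD 1, 2 and 4, and 12.3 to 15.1 CPM in WT-NCD, and Retnlg was at 0 in every KO library. In the WT-HFD libraries, Gpd1, Acsl1, Agpat2, Agpat3, Lpin1, Dgat2 and Mogat2 were lowest in WT-HFD 4 and highest in WT-HFD 1, the reverse of the neutrophil markers, whose part in these levels was not tested. With the libraries scaled to the adipocyte markers in place of TMM, Agpat2 (-2.76), Gpd1 (-1.51) and Dgat2 (-1.06) were still called as lower in WT-HFD than in WT-NCD, Lpin2 (1.34) was called as higher, and the other 6 members were not called, Agpat3 changing sign to 0.18. This scaling shifted the median gene by 0.75 in that comparison, so that 9128 genes were called as higher and 735 as lower, against 2880 and 3001 with TMM. In KO-HFD against WT-HFD it shifted the median gene to -0.57, with 445 higher and 7157 lower against 1307 and 1263, and Acsl1 (-0.997), Agpat2 (1.01) and Lpin2 (-1.25) were called. In KO-NCD against WT-NCD, Agpat2 (-1.58) and Gpd1 (-1.12) were called, with 478 genes higher and 235 lower against 861 and 1293. For the interaction, Agpat2 (2.59), Mogat2 (1.89), Dgat2 (1.31) and Gpd1 (0.85) stayed positive and Lpin2 (-1.59) was called as negative, with 327 genes positive and 6559 negative against 1491 and 1402.

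**Figure D5:**
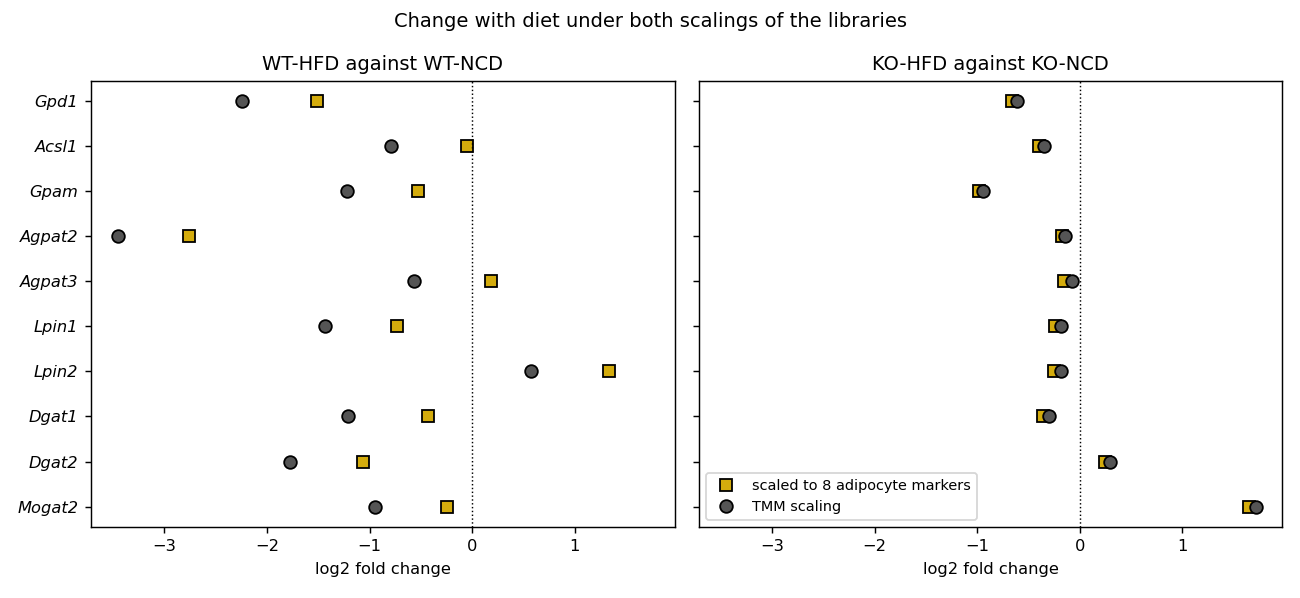
Log2 fold change with diet (x axis) of each enzyme (y axis) in WT mice (left) and KO mice (right), with squares for libraries scaled to 8 adipocyte markers and circles for TMM. In WT mice the squares lie to the right of the circles, with Agpat2 at -2.76 and -3.46, and in KO mice both lie close together.

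Across the 12 libraries, the members were unequal in how closely they followed their own mean z-score profile. Gpd1 (r = 0.97), Agpat2 (r = 0.95) and Agpat3 (r = 0.92) lay nearest to it, Mogat2 (r = 0.42) far from it, and Lpin2 (r = -0.43) ran against it. These values are a description over libraries that share groups and a scaling. Outside the members, the 5 genes most like this profile by Pearson's r over 12 libraries were Tle1 (0.98), Aco1, Lactb2, Pomt1 and Tm7sf2 (0.97 each). Tle1, a transcriptional corepressor, averaged 34.4 CPM in KO-HFD, 36.7 CPM in KO-NCD, 28.6 CPM in WT-HFD mice and 64.9 CPM in WT-NCD mice.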

How the data were processed

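The authors deposited raw read counts per gene: per the labels and the study's methods, demultiplexing used bcl2fastq (2.20.0), trimming Trimmomatic, mapping to mm10 HISAT2 (2.1.0) and counting StringTie (1.3.4d). Of 19792 Entrez IDs, 19745 matched a symbol. The 3 WT-HFD columns carry the numbers 1, 2 and 4 while the titles end at 3. The column numbered 4 was therefore used as a library of that group only, with a level of its own in the replicate block.

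Genes were filtered by filterByExpr (minimum count 10, minimum total 15), which kept 16352 with 99.989% of the counts. TMM scaling and a quasi-likelihood fit of 1 mean for each group used edgeR 4.0.16 (R 4.3.3), leaving 8 residual degrees of freedom, a common dispersion of 0.115 (biological coefficient of variation 0.339), and p adjusted by Benjamini-Hochberg over all tested genes. The code was tested on simulated data. Total counts had a median of 63334598. Intervals cover the spread between libraries, and the depth left no member near 0.

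Every member is plotted in every comparison, and the text gives the values of those called and of some not called. Of the further genes, up to 4 called genes with the smallest p in each direction are named, and the 5 most alike by Pearson's r. Ratios add 0.5 counts. The members and lists were chosen with earlier results of these data known.

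KO-HFD and KO-NCD libraries of equal number deviated together from their group means (correlations of 0.468, 0.699 and 0.195 for numbers 1, 2 and 3). Those of unequal number had correlations of -0.571 to 0.182, so the pairing of number 3 is weakly shown. These groups were taken as paired only in the fits with the replicate block. The main fit has no such term, so its values for KO-HFD against KO-NCD ignore the pairing. The other pairs of groups were not taken as paired, with correlations of -0.309 to 0.301 for equal numbers. Alternatives were the Wald test of DESeq2 (1.42.0) or its size factors alone, all genes unfiltered, a fit of the compared groups alone, the replicate block, scaling to adipocyte markers, and leaving out libraries or seminal vesicle genes. The block in the KO libraries alone was added after seeing the data. Coordinates are from GENCODE M21 on GRCm38, promoters from RefSeq.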

Additional observations from a re-analysis of the deposited data

Results flagged for a closer look

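For 6 enzymes, the change with diet differed between the genotypes by edgeR's test of the diet by genotype interaction, which called 17.7% of all genes, 9.12% with a positive sign. The log2 change in KO mice minus that in WT mice was 3.32 for Agpat2, 2.67 for Mogat2, 2.06 for Dgat2, 1.63 for Gpd1, 0.91 for Dgat1 and 0.48 for Agpat3. For Mogat2 the estimates had opposite signs, 1.72 in KO mice and -0.95 in WT mice, and neither was called by itself in edgeR. For Dgat2 they were 0.29 and -1.77. For the other 4, the change in WT mice was called as negative and that in KO mice was not called, with 95% intervals that cover 0 for Agpat2, Agpat3 and Dgat1. Each value uses the WT-NCD libraries that hold seminal vesicle transcripts, and without WT-NCD 1 and WT-NCD 2 only Agpat2 of the 6 was still called, beside 4.31% of all genes. Groups of 3 libraries are too small to look for single libraries that stand apart.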

How the results depend on the processing

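With the replicate number as a block in the fit of all libraries, members called in KO-HFD against WT-HFD were 0 and further genes 3. Without it they were 2 and 11, and the share of all genes called was 15.7% without it and 4.04% with it. Further genes called for the interaction were 6, against 11, beside 8.29% of all genes against 17.7%. Gpam in KO-HFD against WT-HFD turned to 0.11. In WT-HFD against WT-NCD the calls of Lpin1 (edgeR adjusted p = 0.135), Lpin2 (0.105) and Acsl1 (0.0929) were also lost in this fit. So were those of Agpat3 and Dgat1 in KO-NCD against WT-NCD (0.0588 and 0.0598) and in the interaction (0.0699 and 0.0871). This left 6, 4 and 4 members in the same order, beside 24.6%, 7.39% and 8.29% of all genes. Without the block these shares were 36.0%, 13.2% and 17.7%. The block also gives the WT libraries a term by number, although they were not taken as paired. In KO-HFD against KO-NCD, which the block pairs by number, it gave 0 members and 0 further genes, beside 0.0367% of all genes. With the KO libraries alone it also gave 0 of each, beside 0% of all genes. It changed no call of a member there. The DESeq2 Wald test called 1 member in KO-HFD against KO-NCD, beside 1.86% of all genes, and 4 in KO-HFD against WT-HFD, beside 24.4%. A fit of KO-HFD and WT-HFD alone called 1 member and 5 further genes, beside 8.47% of all genes. A fit of KO-NCD and WT-NCD alone lost Agpat3 (edgeR adjusted p = 0.0905) and Dgat1 (0.0606) and gained Dgat2 (0.0287). It called 7.61% of all genes, against 13.2% in the fit of all libraries. Scaling to adipocyte markers called 4 members in WT-HFD against WT-NCD, beside 60.3% of all genes. It called 2 members and 3 further genes in KO-NCD against WT-NCD, beside 4.36%. In WT-HFD against WT-NCD it reversed Agpat3 (0.18), and in KO-HFD against WT-HFD Agpat3 (-0.45), Dgat1 (-0.30) and Gpd1 (-0.27). In the interaction it reversed Gpam (-0.45), Agpat3 (-0.34) and Acsl1 (-0.35). Without WT-NCD 1 and WT-NCD 2, which leaves fewer samples, members and further genes called were 4 and 10 in WT-HFD against WT-NCD, 0 and 1 in KO-NCD against WT-NCD and 1 and 5 for the interaction, and Lpin1 in KO-NCD against WT-NCD turned to -0.15. Without KO-NCD 2 and KO-HFD 2, 2 members were called in KO-NCD against WT-NCD, beside 10.4% of all genes. In KO-HFD against WT-HFD 6 further genes were then called, beside 6.17%. In the same fit Agpat2 in KO-HFD against KO-NCD turned to 0.21 and Lpin1 in KO-NCD against WT-NCD to -0.00073. Where no cause is named, the cause was not tested.

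Leaving out each library in turn, members called ranged over 6 to 9 in WT-HFD against WT-NCD and 0 to 4 in KO-HFD against WT-HFD. They ranged over 1 to 7 in KO-NCD against WT-NCD and 3 to 7 for the interaction. Further genes ranged over 15 to 19, 3 to 11, 4 to 10 and 6 to 10 in the same order. Of all genes, these fits called 27.6% to 35.0%, 5.64% to 16.6%, 2.97% to 14.3% and 10.4% to 18.2% in that order. In KO-HFD against KO-NCD, members and further genes called stayed at 0, beside at most 0.215% of all genes. There Agpat2 ranged over -0.37 to 0.14 and Lpin1 over -0.82 to 0.086. Gpam ranged over -0.35 to 0.15 in KO-HFD against WT-HFD and -0.093 to 0.60 for the interaction, and in KO-NCD against WT-NCD Lpin1 ranged over -0.24 to 0.24 and Lpin2 over -0.013 to 0.23. Among the ratios, Lpin2 over Lpin1 ranged over -0.11 to 0.47 between the KO diets and -0.12 to 0.23 in KO-NCD against WT-NCD, Agpat3 over Agpat2 over -0.19 to 0.31 between the KO diets, and Mogat2 over Dgat2 over -0.47 to 0.16 in KO-HFD against WT-HFD. DESeq2 size factors changed no call of a member, and leaving out the seminal vesicle genes changed 1, Lpin2 in the interaction, which was then called (-0.77). Testing all genes unfiltered lost Agpat3 and Mogat2 in KO-NCD against WT-NCD (adjusted p = 0.0509 each), and the DESeq2 Wald test added Dgat2 there (adjusted p = 0.0139) and Lpin2 in the interaction (adjusted p = 0.0265).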
